A study of Mus musculus with 2 samples.

Results

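Sp7-positive osteogenic cells were the cells of the healing calvarial defect that carried RNA of Sp7, the transcription factor osterix, while RNA of the osteocalcin genes Bglap and Bglap2 was still low. There were 91 such cells among 17129 cells of good quality in the series, 32 of 9036 in the GA library and 59 of 8093 in the control library. They were chosen by measured values. A cell needed at least 1 Sp7 UMI (unique molecular identifier, 1 captured RNA molecule), at least 2 UMIs of Pdgfra and Prrx1 together, at least 1% of its UMIs from the collagen genes Col1a1, Col1a2 and Col3a1, and less than 0.5% from Bglap and Bglap2. Cells with 0.02% or more Cd34, 0.05% or more Eln, 1% or more S100a8 and S100a9, more than 5 UMIs of Ptprc and Csf1r, 2 or more Scx UMIs, or 10 or more UMIs of the cycling genes Mki67, Top2a and Ube2c were left out. The levels of these genes in the cells follow from that choice and are given as a description.

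The series holds 2 single-cell libraries from a calvarial defect made in the frontal bone of male C57BL/6 mice (C57BL/6J in the text of the study), 2 months old, and each library pooled cells of 5 mice. In the GA group, mice were injected intraperitoneally each day with gambogic amide, a small molecule, at 1.2 mg/kg in 10% DMSO. That dose is the one in the labels, and the text of the study gives a higher one. The control group received 100 µL of 10% DMSO alone. Injections started 24 h before the injury, bone with the defect was taken on day 7, and its cells were released with collagenase. No transgene was used, and the mouse from which a cell came cannot be told, so each condition was 1 sample. The ranges and intervals below cover counting error over cells or UMIs only, and no test between conditions was possible.

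Osteoblasts arise from mesenchymal progenitors in an ordered sequence. Runx2 commits a cell to the lineage, Sp7 acts downstream of it, and alkaline phosphatase, encoded by Alpl, rises as the cell prepares matrix for mineral. Bone sialoprotein (Ibsp) and osteopontin (Spp1) bind mineral in that matrix, osteocalcin (Bglap) marks the mature osteoblast, and Dmp1, Phex and Mepe are known from cells that become enclosed in bone as osteocytes. In the frontal bone these cells come largely from the neural crest and form bone directly, without a cartilage model.

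Sp7 lies at chr15:102356606-102367182 on the minus strand of GRCm38, Runx2 at chr17:44495987-44814797 on the minus strand and Alpl at chr4:137741733-137796384 on the minus strand. Ibsp lies at chr5:104299171-104311469 on the plus strand, between Dmp1 at chr5:104202613-104214102 and Spp1 at chr5:104435118-104441050. Bglap lies at chr3:88383501-88384464 on the minus strand. The 250 bases before the RefSeq starts of Ibsp and Bglap are shown here because Bglap set the border of the population and Ibsp ranged widely among its cells. The RefSeq start of Ibsp lies 116 bases inside the gene as the GENCODE coordinates above give it, and that of Bglap 2 bases outside. Both windows are on GRCm38.p6, written 5′ to 3′ on the strand of the gene, at chr5:104299037-104299286 for Ibsp and chr3:88384467-88384716 for Bglap, with matches to a TATA box, a CCAAT box and a RUNX core in capitals.
Ibsp: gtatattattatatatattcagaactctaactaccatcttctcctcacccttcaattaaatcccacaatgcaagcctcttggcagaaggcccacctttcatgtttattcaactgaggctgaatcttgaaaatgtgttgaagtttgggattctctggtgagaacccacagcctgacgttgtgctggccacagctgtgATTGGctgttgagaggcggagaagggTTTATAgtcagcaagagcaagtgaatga
Bglap: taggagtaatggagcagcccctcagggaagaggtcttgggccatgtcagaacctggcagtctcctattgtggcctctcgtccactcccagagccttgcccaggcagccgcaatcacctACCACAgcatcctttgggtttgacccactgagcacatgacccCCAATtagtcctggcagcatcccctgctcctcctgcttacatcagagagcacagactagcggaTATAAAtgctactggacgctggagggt

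The TATA box was searched as TATAAA on both strands and was found 28 bases before the RefSeq start of Ibsp, as TTTATA, and 27 bases before that of Bglap, and 13% of the 27025 promoter windows held it. The CCAAT box (CCAAT or ATTGG) began 54 bases before the Ibsp start and 90 bases before the Bglap start, and 34.5% of windows held one. The RUNX core (ACCACA or TGTGGT) began 132 bases before the Bglap start and was not among the letters of the Ibsp window, and 14.2% of windows held it. A match describes the letters only.

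First, the name of the population was set against its markers. Levels are given as CPM, the UMIs of a gene per 1000000 UMIs of the cell or population. Sp7 ranged over single cells from 8.91 to 320 CPM in the GA library, with a median of 58.3, and from 7.77 to 272 CPM in the control library, with a median of 32.7. Most calls rested on few molecules, since 13 of 32 GA cells and 35 of 59 control cells held a single Sp7 UMI, and 7 and 6 cells held 5 or more. Among cells high in S100a8 and S100a9, which are neutrophils and should lack Sp7, 0.0658% of GA cells and 0.113% of control cells held an Sp7 UMI, at median depths of 7758 and 6248 UMIs against 31604 and 41604 in the Sp7-positive cells.

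Runx2 was found in every Sp7-positive cell, from 36.5 to 6157 CPM around a median of 626 in the GA library and from 44.0 to 3460 CPM around 525 in the control library. As 41.3% and 38.1% of the neutrophils also held a Runx2 UMI, a single molecule of it marks nothing. Of the Sp7-positive cells 26 and 46 had 10 or more. Cells that met every criterion but had 0 Sp7 UMIs held Runx2 as well, at 291 CPM in GA and 429 CPM in control. Alpl was found in 25 of 32 GA cells (78.1%, exact 95% interval 60.0 to 90.7%) and in 43 of 59 control cells (72.9%, 59.7 to 83.6%), against 0.18% and 0.34% of neutrophils. It was also in 19.5% and 26.8% of the cells with 0 Sp7 UMIs. Among cells with 2 or more Scx UMIs it was in 64.7% and 41.6%. Sp7 was required of every cell, so that only Runx2 and Alpl bear on the label, and 7 GA cells and 16 control cells showed no Alpl.

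**Figure D1:**
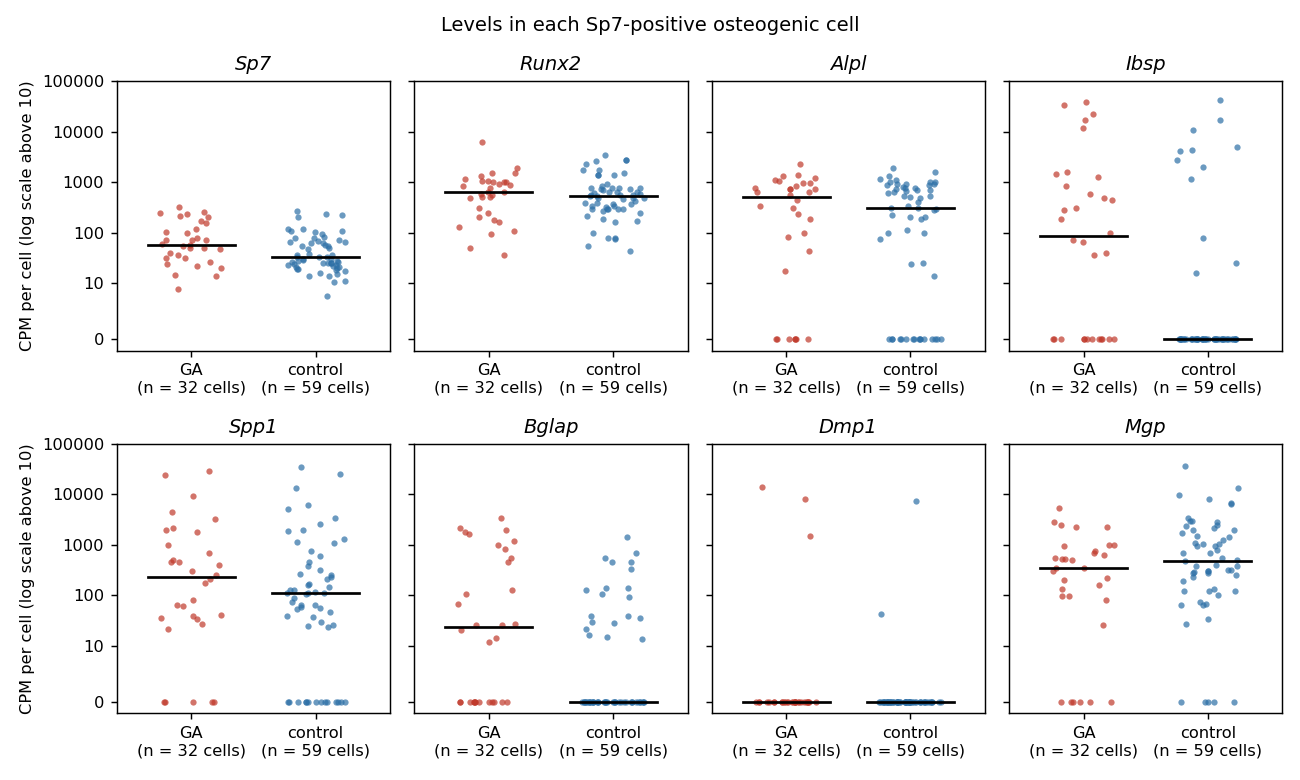
Level of 8 genes in each Sp7-positive cell, in CPM on an axis that is linear up to 10 and logarithmic above, with 1 point per cell and a line at the median of the 32 GA cells or the 59 control cells. Runx2 is present in every cell, whereas Ibsp runs from 0 to 38670 CPM in GA and to 42508 CPM in control cells, and Dmp1 is seen in 3 and 2 cells.

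The summed UMIs of the cells came to 1250566 in GA and 2695730 in control, with medians of 5205 and 6107 genes per cell, and the mitochondrial share had a median of 3.97% in both. None of the 91 cells carried 1 of the 23 barcodes that occurred in both libraries. At its automatic threshold Scrublet marked 0 GA and 26 control barcodes as doublets, so an alternative set aside the top-scoring barcodes. These were 699 of 9036 kept GA cells and 564 of 8093 kept control cells. Among them were 8 of the 32 Sp7-positive GA cells and 9 of the 59 control ones. That was a larger share than over all kept cells in both libraries. Free RNA was estimated at 0.480% of the UMIs of the GA cells and 0.614% of those of the control cells.

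How common the cells were in the 2 libraries depended on what they were counted against. They made up 0.354% of all kept GA cells (0.242 to 0.50%) and 0.729% of all kept control cells (0.555 to 0.939%), a ratio of 0.486 (0.316 to 0.746). With Bglap and Bglap2 below 0.1% the ratio was 0.358 (0.219 to 0.587). With the highest doublet scores removed it was 0.43, and with a mitochondrial share up to 10% it was 0.45. With 2 or more Sp7 UMIs required the ratio was 0.709 (0.389 to 1.29), an interval that spans 1. Among the 4876 GA and 5164 control cells with 10000 or more UMIs it was 0.556 (0.361 to 0.858), and with Sp7 called in these after thinning each to 10000 UMIs, which left 20 and 29 cells, it was 0.730 (0.414 to 1.29). The same 20 and 29 cells over all kept cells gave 0.618 (0.350 to 1.09). Against the collagen-rich mesenchymal cells alone, 971 in GA and 1980 in control, they made up 3.30% and 2.98%. That ratio was 1.11 (0.724 to 1.69), an interval that spans both directions. It was 0.816 (0.50 to 1.33) with Bglap and Bglap2 below 0.1%, and 1.61 (0.889 to 2.93) with 2 or more Sp7 UMIs. Immune cells filled more of the GA library, with 4559 cells high in S100a8 and S100a9 against 1766 in control.

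The neighbouring stages were counted in the same way, and differences between their ratios were not tested. Cells that met every criterion but had 0 Sp7 UMIs numbered 221 and 492, a ratio of 0.916 (0.797 to 1.05) among mesenchymal cells and of 0.402 (0.344 to 0.470) among all kept cells. Bglap osteoblasts, with 0.5% or more of their UMIs from Bglap and Bglap2, numbered 79 and 59, a ratio of 2.73 (1.97 to 3.79) among mesenchymal cells and of 1.20 (0.857 to 1.68) among all kept cells. Scx-positive cells numbered 51 and 202, a ratio of 0.515 (0.382 to 0.693) among mesenchymal and 0.226 (0.167 to 0.307) among all kept cells. These intervals count cells of 1 pool of mice per condition, and whether another pool would give such ratios was not tested.

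Most cells lay far below the border in Bglap, with a median share of 0.00259% in GA and 0 in control, and Bglap summed to 349 and 69.4 CPM against 49423 and 57001 CPM in the Bglap osteoblasts. With Bglap and Bglap2 as the only failed criterion, 57 GA and 48 control cells stood outside. The member closest to the limit of 0.5% had 0.455% in GA and 0.288% in control, and the nearest cell outside had 0.583% and 0.581%. Of Bglap osteoblasts, 87.3% in GA and 96.6% in control also held an Sp7 UMI. An Sp7 UMI was held by 27.5% and 21.8% of Scx-positive cells and by 0.903% and 0.492% of Cd34-high cells.

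Next, the cells were ordered by how many Sp7 UMIs they held (1, 2 to 4, or 5 and more) and set beside the counterparts with 0. The order describes the cells and carries no test, as the median depth varied between bins from about 28620 to 47340 UMIs. Alpl stood at 33.4 CPM in GA and 28.2 CPM in control counterparts, at 232 and 254 CPM in cells with 1 Sp7 UMI, at 681 and 603 CPM with 2 to 4, and at 765 and 728 CPM with 5 or more. Pth1r, the receptor for parathyroid hormone, went in the same order, from 23.8 and 31.8 CPM in counterparts to 670 and 319 CPM in cells with 5 or more. Wif1, a secreted Wnt inhibitor, went from 9.59 and 10.6 CPM to 285 and 372 CPM.

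The summed levels of mineral-binding matrix genes were highest at the top of the order. Ibsp was at 435 and 580 CPM in cells with 1 Sp7 UMI, at 348 and 815 CPM with 2 to 4, and at 18614 and 8971 CPM with 5 or more. A few cells carried the sum of the last bin, since single cells in it ranged from 0 to 42508 CPM in control and from 475 to 38670 CPM in GA, and a control cell with 1 Sp7 UMI reached 16650 CPM. Spp1 likewise reached 7819 and 8348 CPM there, against 991 and 765 CPM in cells with 1 Sp7 UMI. Sfrp2 and Mgp ran the other way. Sfrp2, a secreted Wnt modulator of fibroblastic cells, was at 1650 and 1387 CPM in counterparts, 448 and 240 CPM with 1 Sp7 UMI and 4 and 184 CPM with 5 or more. Mgp, matrix Gla protein and an inhibitor of calcification, went from 2086 and 2566 CPM to 308 and 623 CPM, and Edil3, a matrix protein that binds integrins, was highest in cells with 1 Sp7 UMI, at 593 and 543 CPM.

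**Figure D2:**
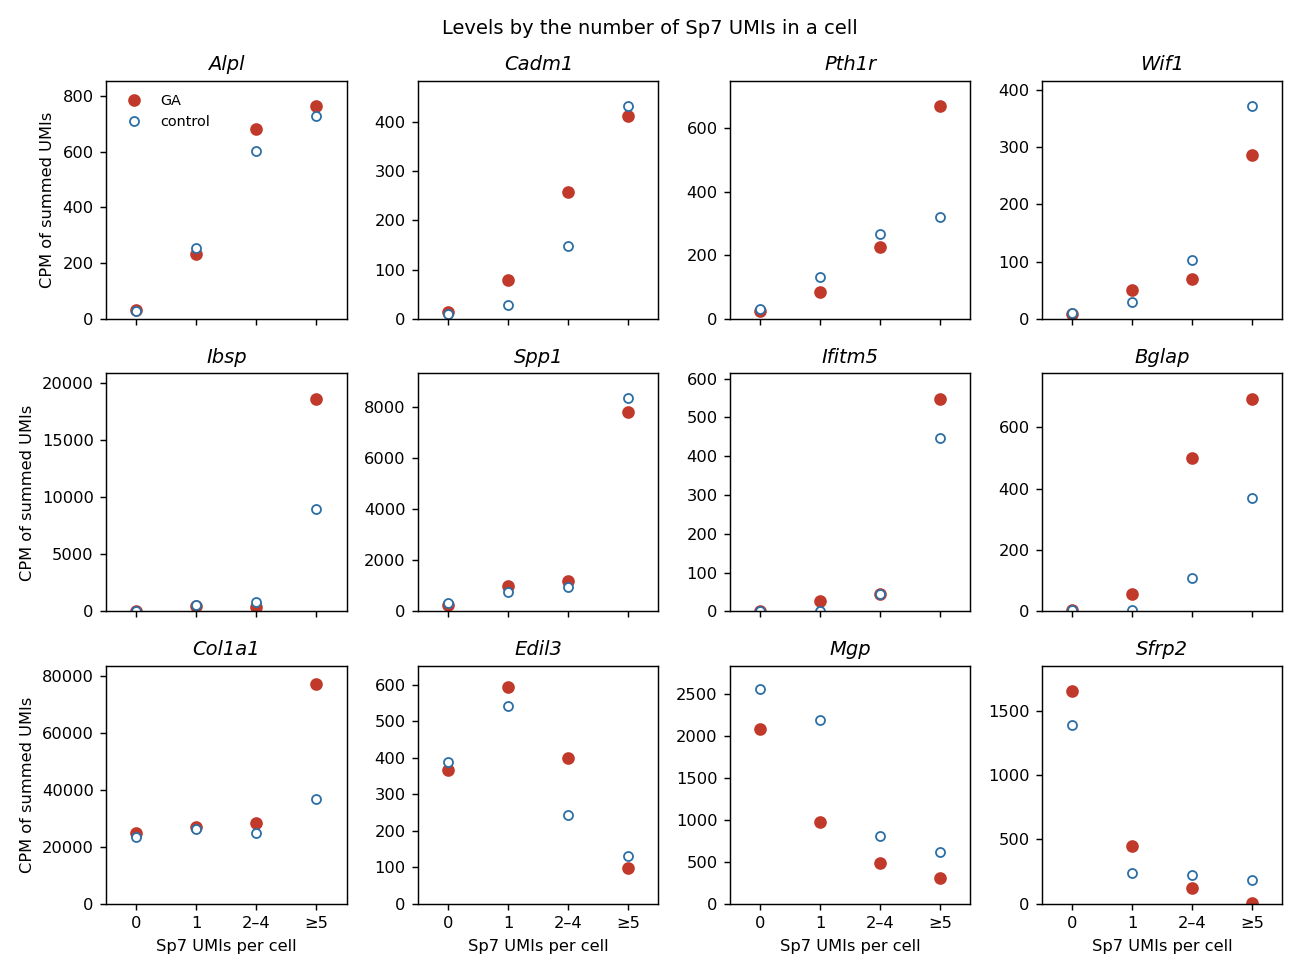
CPM of summed UMIs (vertical axes, linear from 0) of 12 genes by the number of Sp7 UMIs in a cell, from 0 in the counterparts to 5 or more, with filled points for GA and open points for control. Alpl is already at 232 and 254 CPM in cells with 1 Sp7 UMI, while Ibsp reaches 18614 and 8971 CPM in the last bin, where a few cells carry the sum, and Mgp and Sfrp2 are lowest there.

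Dmp1 marked out a handful of these last cells. In GA it was found in 3 cells, with 349, 334 and 47 UMIs, which held 8, 9 and 8 Sp7 UMIs. In control it was found in 2 cells, with 231 and 2 UMIs. The 3 cells with 231 to 349 Dmp1 UMIs had no Alpl UMI and had 61 to 162 UMIs of Phex, a regulator of phosphate handling, and 1 of them had 36 UMIs of Mepe, a matrix protein of osteocytes. They also held 41, 187 and 46 UMIs of Bglap and Bglap2. Low Bglap RNA therefore did not keep cells rich in osteocyte genes out of the population, and the name "before Bglap" describes their Bglap share and not their place in the sequence.

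The cells were then compared with their 221 and 492 counterparts without an Sp7 UMI, within each library. A gene was counted when its log2 ratio was at least 0.5 in the same direction in both libraries with at least 50 UMIs in each. Of 10576 genes, 567 were higher (5.36%) and 863 lower (8.16%) in the Sp7-positive cells. Genes of the selection rule are left out of the named genes and list counts that follow, and the gene lists are described beside these background shares only.

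Of the transcription factors of the osteoblast lineage, 6 of 15 measured members were higher and 2 lower. Dlx5, a homeobox activator of osteoblast genes, stood at 37.6 against 2.01 CPM and 28.9 against 1.74 CPM. Runx2 itself was at 686 against 291 CPM in GA and at 745 against 429 CPM in control. Twist2, a factor of dermal and early mesenchymal cells, was lower, at 4.0 against 44.6 CPM, with only 5 UMIs in GA, and 12.6 against 48.5 CPM.

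Of the mineralization genes, 6 of 10 were higher and 1 lower. Alpl was higher by 3.92 log2 units in GA (3.73 to 4.11) and by 3.83 in control (3.69 to 3.97). Ank, which exports the mineralization inhibitor pyrophosphate, was at 570 against 181 CPM and 337 against 223 CPM. Smpd3, a sphingomyelinase needed for mineral formation, was at 101 against 0.456 CPM and 44.9 against 0.434 CPM, with 30% and 73% of its UMIs in 1 cell. Mgp was the member that was lower, at 662 against 2086 CPM and 1643 against 2566 CPM, with 20% of the control UMIs in 1 cell. Late osteoblast and osteocyte genes were higher for 7 of 10 and lower for 1, and Ifitm5, a membrane protein of mineralizing osteoblasts, was at 142 against 0.822 CPM and 57.1 against 1.17 CPM, again with 46% and 74% in 1 cell.

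Among the genes furthest above the counterparts, 7 were found in more than 50% of the Sp7-positive cells of both libraries, namely Fat3, Alpl, Omd, Pdzd2, Lmo7, Dlg2 and Pth1r. Fat3, an atypical cadherin, was found in 75% and 66.1% of the Sp7-positive cells against 3.17% and 9.55% of counterparts, with log2 ratios of 4.81 (4.59 to 5.05) and 5.19 (4.99 to 5.39), and 63% of the UMIs of the GA counterparts lay in 1 cell. Omd, osteomodulin, a small proteoglycan of bone, was higher by 3.16 and 3.51 log2 units, and Pth1r by 3.44 (25% of its UMIs in 1 cell) and 2.58. Lmo7 was higher by 2.79 and 2.87 and Dlg2 by 2.63 and 2.62 log2 units. Pdzd2 was higher by 3.10 and 3.29. Some of the genes furthest above counterparts rested more on single cells, with 43.8% and 11.7% of the UMIs of Pdzd2, 50.6% and 20% of Bmp2, 24.1% and 23.8% of Wif1, and 20.7% and 25.3% of Cadm1 in 1 cell.

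BMP pathway genes were higher for 9 of 25 and lower for 3. Id2 and Id3, direct targets of BMP signalling, were at 275 and 711 CPM in GA against 86.4 and 258 CPM, and at 235 and 444 CPM in control against 83.1 and 253 CPM. Bmpr1b, a BMP receptor, was lower, at 27.2 against 164 CPM in GA (50% in 1 cell) and 44.9 against 123 CPM in control. In the Wnt list 7 of 28 genes were higher and 6 lower. Lrp4, a receptor of Wnt inhibitors, was at 36.8 against 5.02 CPM (22% in 1 cell) and 36.4 against 5.29 CPM, while Sfrp1, a secreted Wnt inhibitor, was at 12.0 against 73.5 CPM (33% in 1 cell) and 8.90 against 50 CPM. Tcf7, a nuclear factor of Wnt signalling, was higher, at 31.2 against 3.20 CPM (21% in 1 cell) and 14.5 against 3.30 CPM.

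Of the Hedgehog genes, which the study followed in repair, 2 of 11 were higher and 0 lower. These were Ptch1, the Hedgehog receptor and a target of the pathway, at 29.6 against 10.2 CPM (27% in 1 cell) and 19.7 against 11.9 CPM, and Gli2, its transcriptional effector, at 22.4 against 11.5 CPM (43% in 1 cell) and 23.4 against 13.3 CPM. No Shh UMI was found in the cells of either library, which leaves room for up to 2.4 CPM in GA and 1.11 CPM in control at 3 UMIs.

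Of the inflammatory factors 0 of 28 were higher and 15 lower. Saa3, an acute phase protein, and Ccl11, the chemokine eotaxin, were at 0 in the Sp7-positive cells of both libraries. Against a floor of 3 UMIs Saa3 was at least 71.8-fold lower in GA and 56.6-fold lower in control, where 88% of the counterparts' UMIs lay in 1 cell, and Ccl11 at least 8.79-fold and 9.71-fold lower. The neutrophil chemokine Cxcl5 was at 0 in GA against 359 CPM and at 7.79 CPM in control against 347 CPM. Dpp4 and Adgrb3 were also at 0 in both, at least 8.07-fold and 11.4-fold lower in GA. Interferon response genes were higher for 0 of 26 and lower for 8, angiogenic factors for 0 and 7 of 17, and glycolysis and hypoxia genes for 1 and 9 of 26.

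Cartilage genes were higher for 6 of 7. Sox6, a partner of Sox9 in cartilage, was at 191 against 30.2 CPM (23% in 1 cell) and 183 against 38.1 CPM, and Acan, the proteoglycan aggrecan, at 84.0 against 27.0 CPM and 126 against 29.8 CPM. Sox5, the close relative of Sox6, was the exception, at 108 against 264 CPM (33% in 1 cell) and 136 against 257 CPM. The defining cartilage collagens were nearly absent, with Col2a1 at 4.0 CPM in GA, 80% of it in 1 cell, and at 0 in control, and Col10a1 at 0 and 1.11 CPM.

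Compared with Bglap osteoblasts, the Sp7-positive cells had more RNA of Mgp, Aspn and Tnfsf11 and less of Col11a2 and Sema3d. Counted as for the counterparts, 2939 of 6547 genes were higher (44.9%) and 330 lower (5.04%). The median gene was shifted by 0.56 log2 units in GA and 0.65 in control, and the cause of that shift was not tested. Relative to that median, 993 genes were higher and 934 lower, and the values below are given relative to it.

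Of 13 skeletal stem and progenitor genes, 7 were higher and 1 lower before that centring, beside 44.9% and 5.04% of all genes. Aspn, asporin, a proteoglycan of periosteal and tendon tissue, was higher by 7.91 log2 units in GA and 5.12 in control, Ogn, osteoglycin, by 6.72 and 5.34, and Mgp by 5.34 and 5.98. In the control osteoblasts 80% of the Aspn and 76% of the Ogn UMIs lay in 1 cell. The smooth muscle actin gene Acta2, found in early mesenchymal cells of repair, was higher by 7.59 and 6.74. Tnfsf11, the osteoclast-inducing ligand RANKL, was at 90.4 (29% in 1 cell) and 97.6 CPM in the Sp7-positive cells and at 0.675 and 0.394 CPM in the osteoblasts. Mmp13, a collagenase of bone remodelling, was at 889 and 753 CPM against 44.2 and 5.13 CPM (29% and 25% in 1 cell), with 53.1% and 76.3% of the Sp7-positive cells holding a UMI against 1.21% and 1.59% of neutrophils.

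Alpl stood above the osteoblasts in both libraries, by 1.47 and 0.48 log2 units, whereas Spp1 was at -2.26 and -3.39 (39% and 28% in 1 cell). Ibsp was at 0.45 in GA and -1.03 in control. Col11a2, a fibrillar collagen abundant in the osteoblasts, was at -3.02 and -6.34 (26% and 72% in 1 cell), and Sema3d, a secreted guidance cue, at -3.09 and -3.30 (36% in 1 control cell). Late osteoblast and osteocyte genes counted 1 higher and 6 lower of 12 before that centring. Runx2 was at -0.55 and -0.61, with almost equal CPM in both populations.

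Against the Scx-positive cells, a population with tendon and multilineage features, 413 of 7660 genes were higher (5.39%) and 264 lower (3.45%). The balance turned with 2 or more Sp7 UMIs, at 513 higher and 651 lower. It also turned with Sp7 called after thinning, at 367 and 564. Alpl was higher by 2.47 (2.26 to 2.68) and 2.63 (2.50 to 2.77) log2 units and Fat3 by 3.21 and 3.00. Id2 was higher by 2.17 and 1.90 and Id3 by 2.17 and 1.62. Of the BMP list, 8 of 23 were higher and 2 lower. Among the genes lowest against the Scx-positive cells, Acta2 was at -1.74 and -1.82 (24% and 10% of its UMIs in 1 cell), Tagln was at -1.77 and -1.98 (26% and 11%) and Myl9 was at -1.43 and -1.44 (28% and 7.7%). Mfap5, a microfibril protein, was at -4.31 in GA and -2.05 in control, with 60% and 47% of its UMIs in 1 cell.

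**Figure D3:**
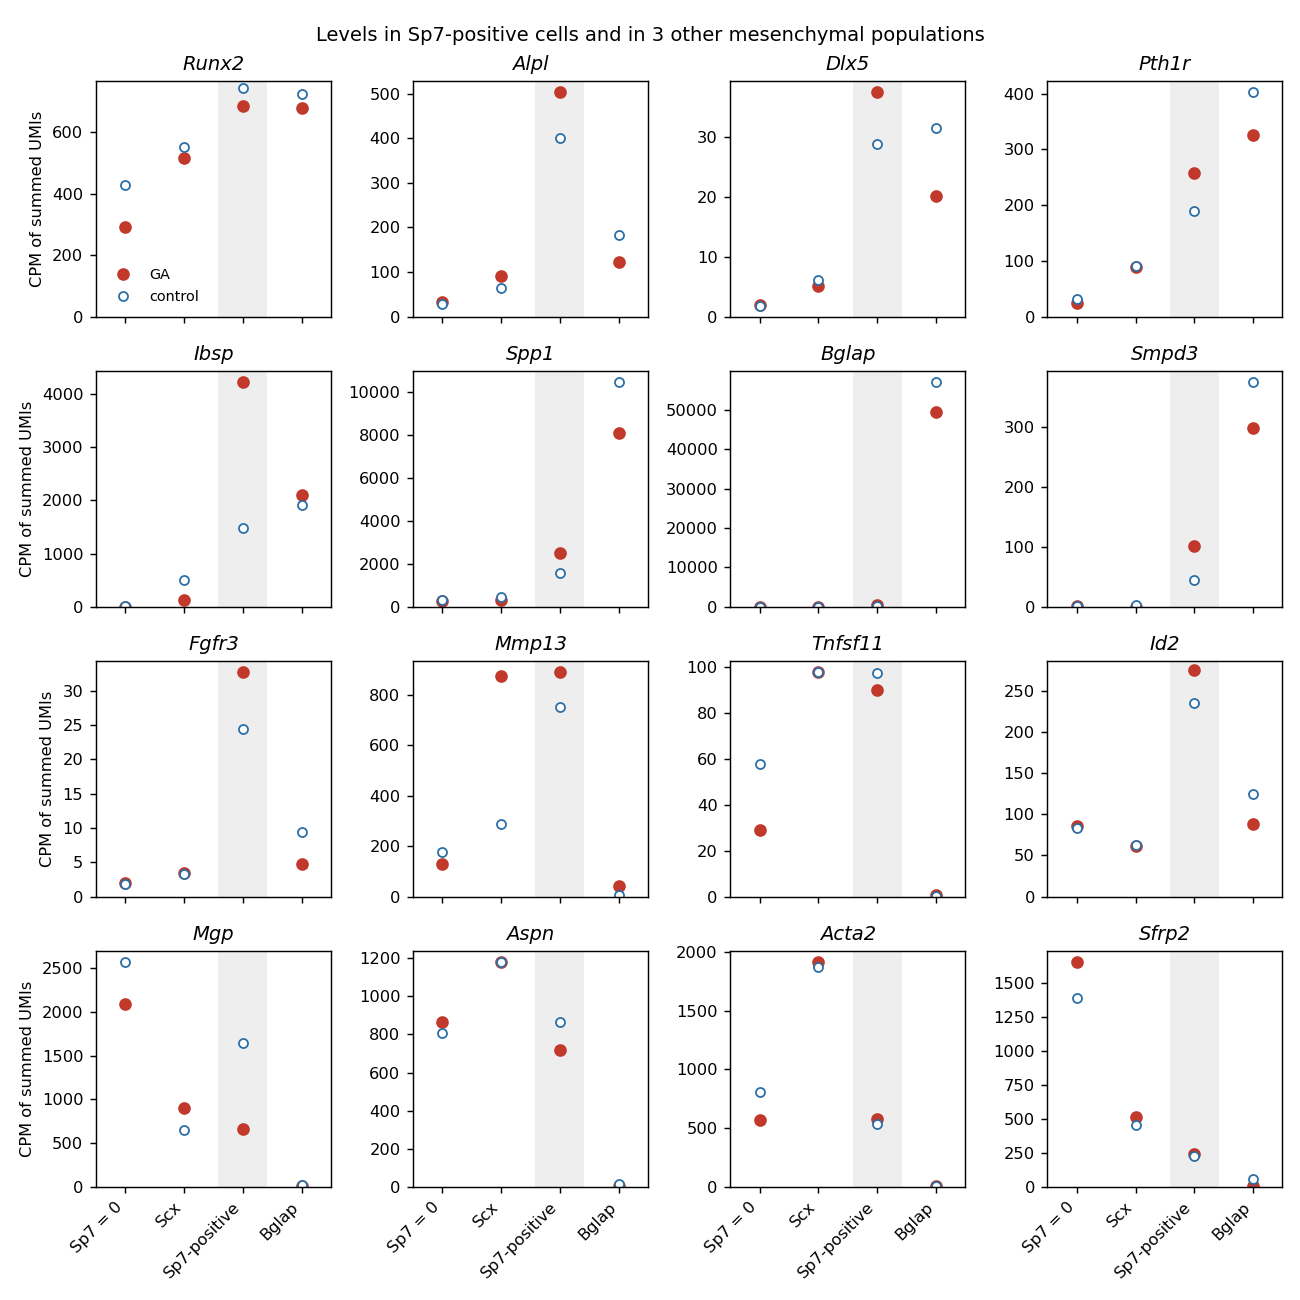
CPM of summed UMIs (vertical axes, linear from 0) of 16 genes in counterparts with 0 Sp7 UMIs, Scx-positive cells, Sp7-positive cells (grey band) and Bglap osteoblasts, with filled points for GA and open points for control. Alpl, Fgfr3 and Id2 are highest in the Sp7-positive cells, Bglap (by the rule) and Smpd3 in the osteoblasts, and Mmp13 and Tnfsf11 are shared with the Scx-positive cells and nearly absent from the osteoblasts.

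Of 6353 genes measured in all 3 comparisons, 71 (1.12%) were higher in the Sp7-positive cells than in counterparts, osteoblasts and Scx-positive cells in both libraries, and 2 (0.0315%) were lower. In this paragraph, ratios over osteoblasts are taken before centring on the median, so genes shifted no more than the median gene could be counted. Alpl, which is among the 71, was at 0.48 in control after that centring, short of the fold counted. The genes named here were picked after their values were seen. Fgfr3, a fibroblast growth factor receptor of skeletal growth, was at 32.8 and 24.5 CPM against at most 9.47 CPM in the others, with 32% and 20% of its UMIs in 1 cell. Timp3, an inhibitor of matrix proteases, was at 393 and 458 CPM against 73.0 to 179 CPM, with 30% in 1 GA cell. Panx3, a channel protein of bone and cartilage, was at 36.8 and 33.0 CPM (33% and 22% in 1 cell), found in 25% and 25.4% of cells. Ostn, osteocrin, a secreted protein of young osteoblasts, was in 12.5% and 16.9% of cells only, and 50% and 26% of its UMIs came from 1 cell. With the highest doublet scores removed, Ostn in GA was at 0.56 over counterparts, at -2.19 log2 units over Bglap osteoblasts and at -3.27 over Scx-positive cells.

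Finally, GA was set against control within the Sp7-positive cells, the comparison the study was designed for. Of 7622 genes with at least 50 UMIs in all, 633 were higher in GA by 0.5 log2 units or more (8.3%) and 1174 lower (15.4%), around a median of -0.06. Gene lists below are described beside these shares only. The comparison is 1 pool of mice against another, over 32 and 59 cells, so that a few cells carried many of the ratios. Without the cell richest in each gene, 391 genes were higher and 1358 lower in GA. That step took 1 of 32 cells from GA and 1 of 59 from control, a larger part of the GA set. How far this sets the counts was not tested. Centred on the median, 772 were higher and 996 lower. The 2 sets also differed in composition, since 14 GA cells (43.8%) and 11 control cells (18.6%) held 5 or more UMIs of Bglap and Bglap2, while 11 (34.4%) and 37 (62.7%) held none. How far that composition sets the ratios cannot be told apart from the treatment.

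Ibsp, a matrix gene of the mineralizing stage, separated the libraries by how many cells expressed it. In GA it ran from 0 to 38670 CPM with a median of 86.5, and in control from 0 to 42508 CPM with a median of 0, so the ranges overlapped. It was found in 20 of 32 GA cells (62.5%, 43.7 to 78.9%) and in 12 of 59 control cells (20.3%, 11.0 to 32.8%), against 0.53% and 0.57% of neutrophils. At an equal depth of 10000 UMIs the shares were 53.5% and 17.0%. Summed, it stood at 4224 against 1477 CPM, a log2 ratio of 1.52 (1.46 to 1.58), with 35.5% and 46.1% of the UMIs in 1 cell. Without the top cell of each library, the ratio was 1.81 over all cells. Among cells with 0 Bglap and Bglap2 UMIs it was then -0.19.

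Late osteoblast and osteocyte genes were higher in GA for 7 of 11 and lower for 0, with a median of 1.05 beside -0.06 over all genes. Ifitm5 was higher by 1.32 (1.00 to 1.64; 46% and 74% in 1 cell), Irx5, a homeobox factor, by 1.39 (1.03 to 1.74; 23% and 11%) and Cadm1, an adhesion molecule, by 1.05 (0.80 to 1.30; 21% and 25%), or 0.42 with Sp7 called after thinning. Bglap belongs to this list and its level was capped by the choice of the cells, and Dmp1 rested on the few cells already described. Mineralization genes were higher for 5 of 10 and lower for 3, with Ank higher by 0.76 (0.61 to 0.90) and Enpp1, which makes pyrophosphate, at -1.03 (-1.41 to -0.66; 32% and 13% in 1 cell). Mgp was at 662 against 1643 CPM, a log2 ratio of -1.31 (-1.42 to -1.20), which was -0.76 with Sp7 called after thinning and -0.51 in cells with 0 Bglap and Bglap2 UMIs.

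Runx2 and Alpl stood within the fold counted, at -0.12 (-0.24 to -0.00) and 0.33 (0.19 to 0.48). Osteogenic transcription factors were higher for 3 of 13 and lower for 1. Of the BMP list 7 of 23 were higher and 5 lower, among them Id3 at 0.68 (0.55 to 0.81), whose direction turned between cells of different Bglap level, and the antagonist Chrdl1 at -1.22 (-1.71 to -0.76; 26% and 13% in 1 cell). In the Wnt list 2 of 19 were higher and 5 lower. Over all genes 8.3% were higher and 15.4% lower.

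Col11a2 had the highest ratio of the genes named by rank, at 347 against 36.0 CPM and 3.27 log2 units (2.95 to 3.60), in 34.4% against 15.3% of cells and with 25.8% and 72.2% in 1 cell. At an equal depth of 10000 UMIs it was in 28.2% and 7.98% of cells, and without thinning in 2.28% and 2.21% of neutrophils. Pcsk6, a protease that activates growth factors, followed at 2.20 (31.6% and 53.8% in 1 cell) and Cemip, which degrades hyaluronan, at 2.04 (36.4% and 10.6%), or 0.72 with Sp7 called after thinning. Magi1 at 1.71 had 60.7% and 46.8% of its UMIs in 1 cell, Cdh13 at 1.63 had 45.7% and 22.9%, and Fabp5 at 1.51 had 73.5% and 12.5%. Without the cell of each library richest in it, Fabp5 was at -0.17, and in cells with 0 Bglap and Bglap2 UMIs Magi1 was at -0.23. Chka at 1.48, Tmem164 at 1.47 and Cdkn2a at 1.32 had 25.7% and 19.0%, 44.3% and 10.0%, and 43.8% and 29.9% in 1 cell. Chka was at 0.22 with Bglap and Bglap2 below 0.1%, Cdkn2a at 0.18 with Sp7 called after thinning and at 0.36 in cells with 0 Bglap and Bglap2 UMIs, and Fabp5 at 0.11 with 2 or more Sp7 UMIs, all short of the fold counted.

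**Figure D4:**
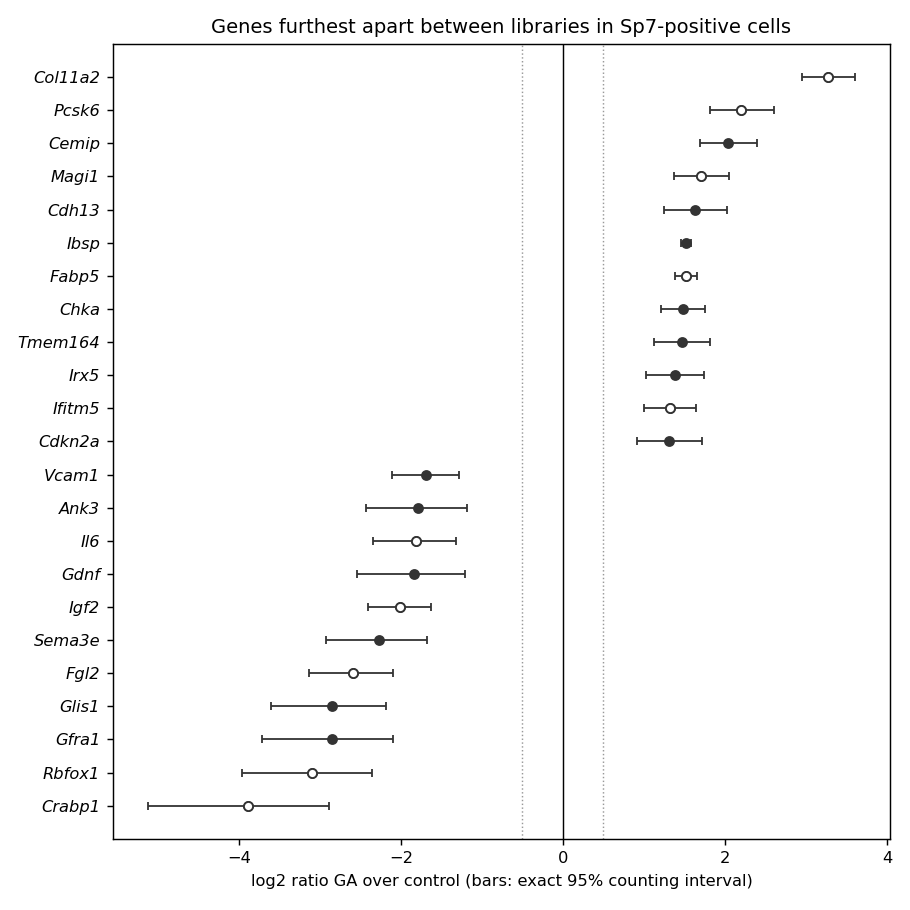
log2 ratio of GA over control in the Sp7-positive cells for genes at both ends of the ranking, with exact 95% counting intervals as bars and dotted lines at the fold counted. Open points mark genes with over 50% of the UMIs of 1 library in 1 cell, as for Fabp5 at 73.5%, so that the bars understate the spread between cells.

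Axon outgrowth and guidance genes were lower in GA for 9 of 21 and higher for 3, with a median of -0.33. Gdnf, a growth factor for nerves and the ligand of Gfra1, was at 18.4 against 66.0 CPM and -1.84 (-2.54 to -1.21; 39.1% and 19.1% in 1 cell). Gfra1 was at 12.0 against 86.8 CPM and -2.86 (-3.72 to -2.10; 26.7% and 38.9%). The guidance genes Sema3e and Nrp1 were at -2.28 (-2.93 to -1.68; 28.0% and 22.2%) and -1.59 (-2.02 to -1.18). Slit2, another guidance cue, was higher by 0.58 (0.43 to 0.73; 27% and 44%), as was Ramp1, a part of the receptor for the sensory neuropeptide CGRP, by 0.96 (0.58 to 1.34; 27% and 35%).

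Inflammatory factors were lower in GA for 12 of 23 and higher for 2, with a median of -0.51. Il33, an alarmin of the interleukin-1 family, was at 17.6 against 190 CPM and -3.43 (-4.12 to -2.82), with 50% of the GA UMIs in 1 cell, and it was at -1.32 with Sp7 called after thinning. It was found in 21.9% of GA and 42.4% of control cells, at median depths of 31604 and 41604 UMIs, in 12.7% and 32.1% at an equal depth of 10000 UMIs, and in 0.943% and 1.93% of neutrophils. Ccl2, a monocyte chemokine, was at 33.6 against 166 CPM and -2.31 (-2.80 to -1.85; 26% and 16% in 1 cell). Among the counterparts Ccl2 went the other way, at 616 against 403 CPM, while Il33 was at 321 against 471 CPM. Nfkbiz, a feedback regulator of NF-kB, was at -1.0 (-1.31 to -0.69).

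Il6 was at -1.81 (-2.34 to -1.32; 55.3% and 29.2% in 1 cell) and Ptgs2, the inducible prostaglandin synthase, at -0.93 (-1.09 to -0.78; 38% and 6.0%). Vcam1, an adhesion molecule for leukocytes, was at 47.2 against 152 CPM and -1.69 (-2.10 to -1.29; 18.6% and 20.3%), in 53.1% against 81.4% of cells. At an equal depth of 10000 UMIs these shares were 28.1% and 49.9%, against 6.51% and 10.2% of neutrophils without thinning. In the counterparts it was at 203 against 184 CPM. Cxcl2 was higher in GA by 1.25, with 85% of its GA UMIs in 1 cell.

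Several growth factors were also lower in GA, where 15.4% of all genes were lower and 8.3% higher. Of the FGF list 6 of 12 were lower and 2 higher, with Fgfr1 at -0.54 (-0.69 to -0.39). Of the IGF list 5 of 15 were lower and 1 higher. Igf1 was at 26.4 against 80.1 CPM and -1.60 (-2.18 to -1.07; 24% and 19% in 1 cell). Igf2 was at -2.01 (-2.40 to -1.63; 54.7% and 45.7%) and at 0.37 among cells with 0 Bglap and Bglap2 UMIs. Of 13 angiogenic factors 6 were lower and 2 higher, with Vegfc, a growth factor for lymphatic vessels, at 12.8 against 67.5 CPM and -2.40 (-3.24 to -1.66; 19% and 21%). In the Hedgehog list 3 of 11 were lower and 2 higher, with Gas1, a co-receptor, at -0.96 (-1.31 to -0.62; 23% and 13%) and Ptch1 at 0.59 (-0.06 to 1.22; 27% and 15%), an interval that includes 0.

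Other genes furthest below control included Crabp1 and Rbfox1, found in 1 and 3 GA cells. Crabp1, a retinoic acid binding protein, was at 6.40 against 95 CPM and -3.89 (-5.12 to -2.89), with all its GA UMIs in 1 cell and 36.3% of the control UMIs in 1 cell. In cells with 0 Bglap and Bglap2 UMIs Crabp1 was at -1.84. Rbfox1 was at -3.10 (66.7% and 31.0% in 1 cell), Glis1 at 15.2 against 109 CPM and -2.85 (21.1% and 14.2%), Fgl2 at -2.59 (60.0% and 49.6%; -0.93 with Sp7 called after thinning and -1.32 in cells with 0 Bglap and Bglap2 UMIs) and Ank3 at -1.78 (-2.43 to -1.19). Of 6 dural and meningeal genes 5 were lower and 0 higher, among them Mgp, described above, and Foxd1 at -1.17 (-1.71 to -0.67; 26% and 34%).

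The size of these ratios moved with the choice of cells. Over the alternatives of the cells and scaling, Col11a2 ran from 1.17 to 4.83, Pcsk6 from 1.74 to 3.48, Cemip from 0.51 to 2.45 and Cdh13 from 0.07 to 3.92. The lowest values of Col11a2, Cemip and Cdh13 came in cells with 0 Bglap and Bglap2 UMIs without the top cell of each library. Their intervals there were -4.72 to 5.43 for Col11a2, -0.29 to 1.25 for Cemip and -0.85 to 0.896 for Cdh13. All of these include 0. Col11a2 had 8 GA and 6 control UMIs in these cells, with 87.5% and 66.7% in the cell left out. Pcsk6 was there at 2.53 (0.93 to 4.19). Tmem164 ran from 0.77 to 1.86 and Irx5 from 0.71 to 1.77. In the same cells without the top cell, Tmem164 was at 0.92 (0.16 to 1.64). Irx5 had its lowest value there, with an interval that includes 0. Of the genes lower in GA, Il33 ran from -4.23 to -1.32, Gfra1 from -5.14 to -1.97, Sema3e from -3.16 to -1.73, Gdnf from -2.74 to -1.42 and Ccl2 from -3.31 to -1.88. Vcam1 ran from -2.15 to -1.13, Il6 from -3.30 to -1.43, Ank3 from -3.26 to -1.31 and Glis1 from -2.93 to -2.02.

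Within the 11 GA and 37 control cells that held no Bglap or Bglap2 UMI, Ibsp was at 4746 against 887 CPM, a log2 ratio of 2.42 (2.32 to 2.52), but 94.5% of the GA UMIs and 63.5% of the control UMIs lay in 1 cell. Without that cell of each library Ibsp was at 295 against 335 CPM, a ratio of -0.19 (-0.50 to 0.11), so the higher GA level there rested on 1 cell. Alpl was at 1.25 (1.00 to 1.49) and, without the top cell of each library, at 0.58 (0.26 to 0.89). Ifitm5 had 14 GA UMIs, all in 1 cell, against 27, a ratio of 1.08 (0.03 to 2.06). In cells with 1 to 4 UMIs of Bglap and Bglap2, 7 in GA and 11 in control, Ibsp was at 2177 against 57.0 CPM, with 86.8% of 756 GA UMIs and 92.9% of 28 control UMIs in 1 cell. Alpl was there at 0.21 (-0.08 to 0.50; 26.1% and 28.2% in 1 cell), and Ifitm5 had 106 GA UMIs, 77.4% of them in 1 cell, against 1 in control. In cells with 5 or more, 14 and 11, Ibsp was at 0.10 (0.02 to 0.18; 42.3% and 75.1% in 1 cell), Alpl was at -1.02 (-1.25 to -0.79; 35.4% and 19.6%) and Ifitm5 at -1.07 (-1.55 to -0.61; 37.9% and 90.5%).

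Gdnf, Il33, Ccl2 and Vcam1, lower in GA over all cells, were lower in each of the 3 bins. In cells with no Bglap or Bglap2 UMI, Gdnf was at -2.0 (-3.35 to -0.91), Il33 at -2.30 (-3.02 to -1.65), Ccl2 at -2.40 (-3.55 to -1.44) and Vcam1 at -1.30 (-1.91 to -0.73), and without the top cell of each library at -2.20, -3.05, -2.35 and -1.13. In cells with 1 to 4 they were at -2.56 (-4.93 to -0.85), -5.84 (-11.16 to -3.32), -3.01 and -0.82, with 3 GA UMIs of Gdnf against 25 and 1 of Il33 against 81. In cells with 5 or more they were at -1.54, -4.86 (-10.21 to -2.27), -2.70 and -2.99, the Il33 value resting on 1 GA UMI against 30. In these 2 bins 1 cell held from 42.3% to 100% of the GA UMIs and from 34.5% to 87.2% of the control UMIs of these genes. Spp1, higher by 0.67 (0.60 to 0.74) over all cells with 39% and 28% of its UMIs in 1 cell, was at -0.97 (-1.14 to -0.80; 67.7% and 45.5%) in cells with no Bglap or Bglap2 UMI, at 1.79 with 1 to 4 (38.9% and 63.6%), at 0.76 with 5 or more (48.8% and 67.8%) and, over all cells, at 0.46 without the top cell of each library. It was at 0.35 with 2 or more Sp7 UMIs, 0.23 with Sp7 called after thinning and 0.39 with Bglap and Bglap2 below 0.1%, short of the fold counted, and at 1.35 with the highest doublet scores removed.

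Other genes also turned between the 3 bins. Id3 was at 1.37 (1.15 to 1.59) with no Bglap or Bglap2 UMI, at -1.09 (-1.43 to -0.76) with 1 to 4 and at 0.20 (0.01 to 0.38) with 5 or more. Tmem164 was at 1.77 and 1.79 in the outer bins and at -1.54 (-2.78 to -0.46) with 1 to 4, on 9 GA UMIs against 37. Fabp5 was at -1.92 (-2.73 to -1.17) with 5 or more, and Ptch1 at 1.75, -0.08 and -0.73 over the 3 bins. Chka at -0.62 (-1.40 to 0.12) and Irx5 at -0.44 (-1.58 to 0.63) were below 0 with 1 to 4, with intervals that include 0. Mgp was below 0 in every bin, at -0.51, -2.44 and -0.82.

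Markers of other cells were summed for 11 lists. The 15 neutrophil markers summed to 501 CPM in the GA cells and 169 CPM in the control cells, against 97753 and 27889 CPM in the other kept cells of each library, and S100a9, the most abundant, was at 204 and 69.4 CPM. Cxcr2 and Ly6g were at 0 in control. The 15 macrophage markers summed to 101 and 112 CPM, led by Lyz2 at 42.4 and 59.4 CPM, with Adgre1 at 0 in GA. Of 10 endothelial markers, Emcn, Tie1, Kdr, Vwf and Cldn5 were at 0 in both and the sum was 56.0 and 27.8 CPM, led by Pecam1 at 38.4 and 18.9 CPM. The 10 T and NK cell markers summed to 4.0 and 4.08 CPM.

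The largest sum in both libraries was that of the 10 pericyte and smooth muscle markers, at 664 and 653 CPM, of which Acta2 made up 574 and 530 CPM, while Rgs5, Kcnj8, Abcc9, Higd1b and Myh11 were at 0 in GA and Higd1b in control. The 10 osteoclast markers summed to 533 and 605 CPM, led by Ctsk, cathepsin K, at 339 and 391 CPM, with Calcr and Dcstamp at 0 in both. The 10 B and plasma cell markers summed to 281 and 469 CPM, almost all of it Ebf1 at 271 and 458 CPM, with Ms4a1, Vpreb3 and Iglc2 at 0 in both. The 8 Schwann cell markers summed to 236 and 203 CPM, led by Ncam1 at 203 and 160 CPM, with Cdh19 and Foxd3 at 0 in both. Erythroid markers summed to 24.8 and 18.9 CPM, keratinocyte markers to 21.6 and 44.9 CPM and skeletal muscle markers to 13.6 and 11.1 CPM. Their part in the results was not tested. With free RNA subtracted, 625 genes were higher and 1174 lower in GA.

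Interferon response genes were higher in GA for 6 of 21 and lower for 2, with a median of 0.22. Bst2 was higher by 0.94 (0.66 to 1.21; 35% and 15% in 1 cell), H2-K1 by 0.72 (0.47 to 0.97) and H2-D1, another class I histocompatibility gene, by 0.58 (0.39 to 0.78). Ifit1 was higher by 1.29 with 75% and 50% of its UMIs in 1 cell. Immediate early genes were higher for 4 of 20 and lower for 3, with Fos at 0.66 (0.59 to 0.73) and Ier3 at -0.90 (-1.10 to -0.70). Over all genes 8.3% were higher and 15.4% lower.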

How the data were processed

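Cells of 1 GA and 1 control library (10x Genomics) were analysed from the feature-barcode matrices that the authors deposited, which hold raw UMI counts per gene and cell barcode, not normalized. Per the file headers they were made with Cell Ranger 7.0.1, and the labels give the mm10 build. The matrices held 9322 and 8718 barcodes with 182949385 and 214993030 UMIs. Cells with 500 to 140000 UMIs, 200 to 9500 genes and at most 15% mitochondrial UMIs were kept, which left 9036 and 8093.

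The population and the gene lists were chosen with earlier results of these data known. For each population and library, the UMIs of a gene were added up over its cells and divided by all their UMIs (CPM). Ratios carry exact conditional binomial intervals and shares exact Clopper-Pearson intervals at 95%, and both cover counting error only. With 1 library per condition no test was made. A gene was counted as higher or lower at a log2 ratio of 0.5, with at least 50 UMIs in both libraries together for GA over control, or in each library and in the same direction in both for the other comparisons. Levels of 0 were bounded with 3 UMIs.

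Named genes were those of the lists and, for GA over control, the 12 highest and 12 lowest among genes with at least 200 UMIs, found in at least 20% of the cells of the higher library and above the level of the other kept cells. For the other comparisons they were the 12 highest and 12 lowest by the smaller ratio of both libraries, with at least 200 UMIs in each. Doublets were scored with Scrublet in Scanpy 1.11.5 and kept unless stated. Python 3.11.15, NumPy 2.4.6, SciPy 1.17.1, pandas 2.3.3 and matplotlib 3.10.9 were used, and the procedure was tested on simulated data. Promoter windows came from RefSeq (GRCm38.p6), and none is shown for Sp7 or Bglap2. Alternatives changed the doublets kept, the mitochondrial limit, the Sp7 and Bglap limits, the UMI minimum, the scaling and the free RNA. Some genes that the rule names are not reported here.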

Additional observations from a re-analysis of the deposited data

How the results depend on the processing

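Of 1903 values of single genes past the fold under the alternatives, 1889 kept their direction and 14 reversed. Ratios with 0 UMIs on 1 side have no finite value and were left out of the 1903. Among these was Ifitm5 in cells with 0 Bglap and Bglap2 UMIs without the top cell. It turned there, at 0 in GA against 7.83 CPM in control. Crabp1 and Rbfox1 were also at 0 in GA there, which kept their direction. Sizes were less stable, as 607 of the 1889 lay outside the counting interval of the reported value and 30 fell short of the fold. Counting all named genes over Scx-positive cells, 57 values lay outside and 17 inside with 2 or more Sp7 UMIs, and 51 and 23 with Sp7 called after thinning. For GA over control these were 24 and 11, and 19 and 17. With the barcodes of highest doublet score removed, Ostn in GA was at -2.19 over Bglap osteoblasts and -3.27 over Scx-positive cells. With 2 or more Sp7 UMIs required, Fat3 and Wif1 in control were at 0.044 and 0.41 over Bglap osteoblasts. Wif1 was at 0.10 when Sp7 was called after thinning. These ratios over Bglap osteoblasts, and that of Ostn, were taken before centring on the median, and reversals on the centred scale were not examined. For GA over control, Magi1 was at -0.20 below 0.1% Bglap and Bglap2 and at -0.23 in cells with 0 such UMIs, where Igf2 was at 0.37 and Spp1 at -0.97, and Fabp5 was at -0.17 without the cell with most of its UMIs. In cells with 0 such UMIs and without the top cell of each gene, Magi1 was at -0.69, Ibsp at -0.19, Cdkn2a at -1.72 and Spp1 at -1.58.

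Counts of genes depended on the minimum of UMIs. At 200 UMIs, 155 were higher and 353 lower in GA, 256 and 529 over counterparts, 1021 and 190 over Bglap osteoblasts, and 135 and 122 over Scx-positive cells. With no minimum beyond 1 UMI these were 3690 and 5634, 1709 and 3447, 6840 and 1209, and 1972 and 1470. Centring on the median gave 993 higher and 934 lower over Bglap osteoblasts. With 2 or more Sp7 UMIs the cells were 0.210% of GA and 0.297% of control, and 1354 genes were lower than in counterparts and 651 than in Scx-positive cells. With Sp7 called after thinning, these counts were 1359 and 564. Below 0.1% Bglap and Bglap2, 231 genes were higher than in Scx-positive cells. Leaving out, for each gene, the cell with most of its UMIs gave 391 genes higher and 1358 lower in GA. Within cells with 0 Bglap and Bglap2 UMIs it gave 315 and 1361. The cell left out was 1 of 32 in GA and 1 of 59 in control, or 1 of 11 and 1 of 37. A larger part of the GA set was thus removed. These settings, the one with 0 Bglap and Bglap2 UMIs, and the share ratios over cells with 10000 or more UMIs and of thinned cells over all kept cells were chosen after seeing the data. The cause of these shifts was not tested beyond the smaller or larger sets of genes and cells that the settings leave.

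No paired analysis was possible because each condition was 1 library. Depth limits genes of few UMIs, and 32 and 59 cells limit every ratio.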
